A study of Homo sapiens with 2 samples.

Results

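The cells described here were 56 of the 524 day 220 cells that passed the filters, and of 13694 cell barcodes in the 2 libraries together. They were chosen by their levels of TAGLN, ACTA2 and COL1A1. Both libraries held astrocyte progenitors derived from H7, an established human embryonic stem cell line, after LIF, BMP4 and FGF1 were given in turn, and they differed in time, 160 or 220 days of differentiation. Each library pooled 3 differentiations that no label separates, so each time point was 1 sample. The protocol text of the day 220 library gives the earlier day, whereas its title and time label give day 220, and its barcode label carries another prefix than that of day 160. With 1 library per time point there was no test. The intervals given cover counting error only, and cells were not treated as replicates.

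Smooth muscle cells, myofibroblasts and some reactive or transformed glia contract through actin filaments moved by myosin, and their actins, tropomyosins and calponins are classic targets of the serum response factor SRF, which binds the CArG box with cofactors of the MRTF family. A parallel route runs through YAP and TAZ, coactivators held back by the Hippo kinases. In the nucleus they join TEAD factors, which bind GGAATG, and CCN1, CCN2 and ANKRD1 are their standard targets. In the brain such genes mark mural cells and fibroblasts, and glioblastoma has a cell state named mesenchymal-like.

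A cell counted as a member when its score E, the mean log2(CPM + 10) of COL1A1, TAGLN and ACTA2 as a z-score over passing cells, was the highest of 5 scores and at least 0.5. CPM is counts scaled to a total of 1000000 UMIs, and a UMI stands for 1 captured RNA molecule. The other scores were A for SPARCL1, EDNRB, HLA-DRA and CA2, B for OLIG1, SMOC1 and BCAN, C for DLX5, DLX6-AS1 and NPY, and D for CHRNA1, RIC3 and GADD45G. Among the 468 other passing cells, 109 had A highest, 91 B, 163 C and 65 D, and 40 had no score at the minimum. Members made up 10.7% of passing cells (exact Clopper-Pearson interval 8.17 to 13.7%). The lowest member scores were 0.54, 0.59 and 0.92, the median was 2.02 and the highest 4.53. The highest cell kept out by the minimum alone had 0.45. A further 51 cells reached 0.5 but had another score higher, up to a score E of 2.17. In 16 members the lead over the next score was under 0.5, and the smallest lead was 0.0044. The next score was A in 23 members, B in 14, D in 14 and C in 5. The class was therefore the upper end of a range, with no gap at either border.

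**Figure D1:**
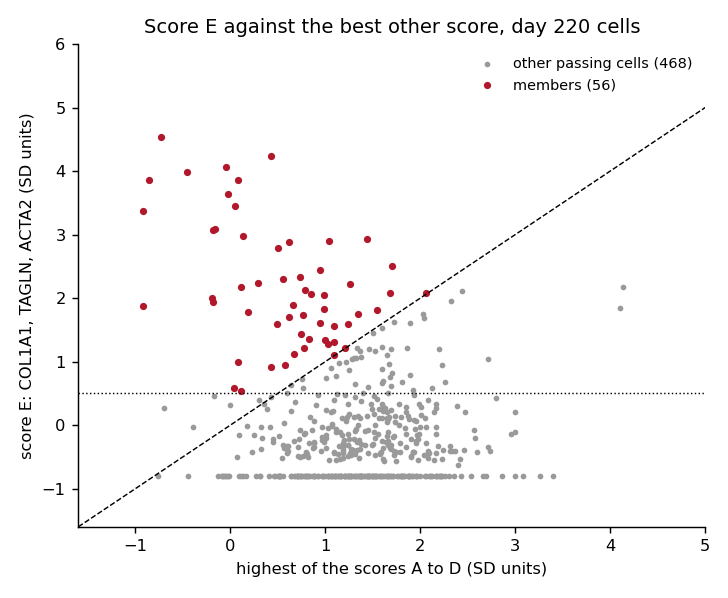
Score E of each day 220 cell (y axis, SD units) against the highest of its scores A to D (x axis, SD units). Red points are the 56 members and grey points the 468 other passing cells. The dashed line marks equal scores and the dotted line the minimum of 0.5. Members run from the borders up to 4.53 without a gap.

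Members were deeper than the other cells. They had a median of 77713 UMIs (1474 to 251692) against 44232.5 in the others, with 9170.5 detected genes against 7659.5. Mitochondrial UMIs took 9.38% against 8.66%, and ribosomal protein genes 11.8% in both. Scrublet marked 2 members and 4 others as doublets, and these were kept. The libraries shared 3 barcodes, 1 of them a member. In 7 members the total was under 5000 UMIs.

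The label was checked against its markers. TAGLN, ACTA2 and COL1A1 chose the cells, so that their presence is no support for it. TAGLN and ACTA2 were both present in 54 of 56 members, but COL1A1 had a UMI in only 20, and all 3 genes met in those 20. The neural progenitor factor SOX2 accompanied TAGLN and ACTA2 in 52 members. TAGLN, the actin-binding protein transgelin, stood at 1045 CPM in members against 32.9 CPM in other cells. Over single members its lowest level was 0, the median 513 CPM and the highest 4204 CPM, while the others had a median of 0 and a highest level of 649 CPM. ACTA2, smooth muscle alpha actin, stood at 1364 against 72.7 CPM, with a median of 881.5 CPM and a highest level of 8326 CPM in members and 11.3 and 1522 CPM in the others. The groups overlapped for both genes, and 4 other cells lay above the members' median of ACTA2 and 1 above that of TAGLN. These values are given as a description.

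COL1A1, the main chain of fibrillar collagen I, stood at 383 against 1.598 CPM, but the deepest member, with 251692 UMIs, held 69.6% of its UMIs. Without that cell the level was 123 CPM. COL1A1 passed 100 CPM in 10 members and 2 other cells. Its partner chain COL1A2 stood at 1.06 CPM (5 UMIs) in members and 2.82 CPM in the others. No UMI of COL3A1, LUM or BGN was found in members, for which the limit set by 3 UMIs was 0.637 CPM, and DCN had 1 UMI. Of the fibroblast and meningeal list, 0 of 3 with 10 CPM or more were higher by 2-fold, and PDGFRA was 3.48-fold lower (3.15 to 3.85). Contractile genes outside the score are given below. Not every gene of this kind was low. In the fibroblast and meningeal list FOXC1 stood at 16.8 against 8.41 CPM and PRRX1 at 38.67 against 42.35 CPM. Among counted interstitial matrix genes, also given below, 10 of 16 were called higher and 0 lower, several of them counted through members alone. COL1A1 was found in a minority, and COL1A2, COL3A1, LUM, BGN and DCN were at or near 0. The members are therefore called TAGLN- and ACTA2-high progenitors.

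**Figure D2:**
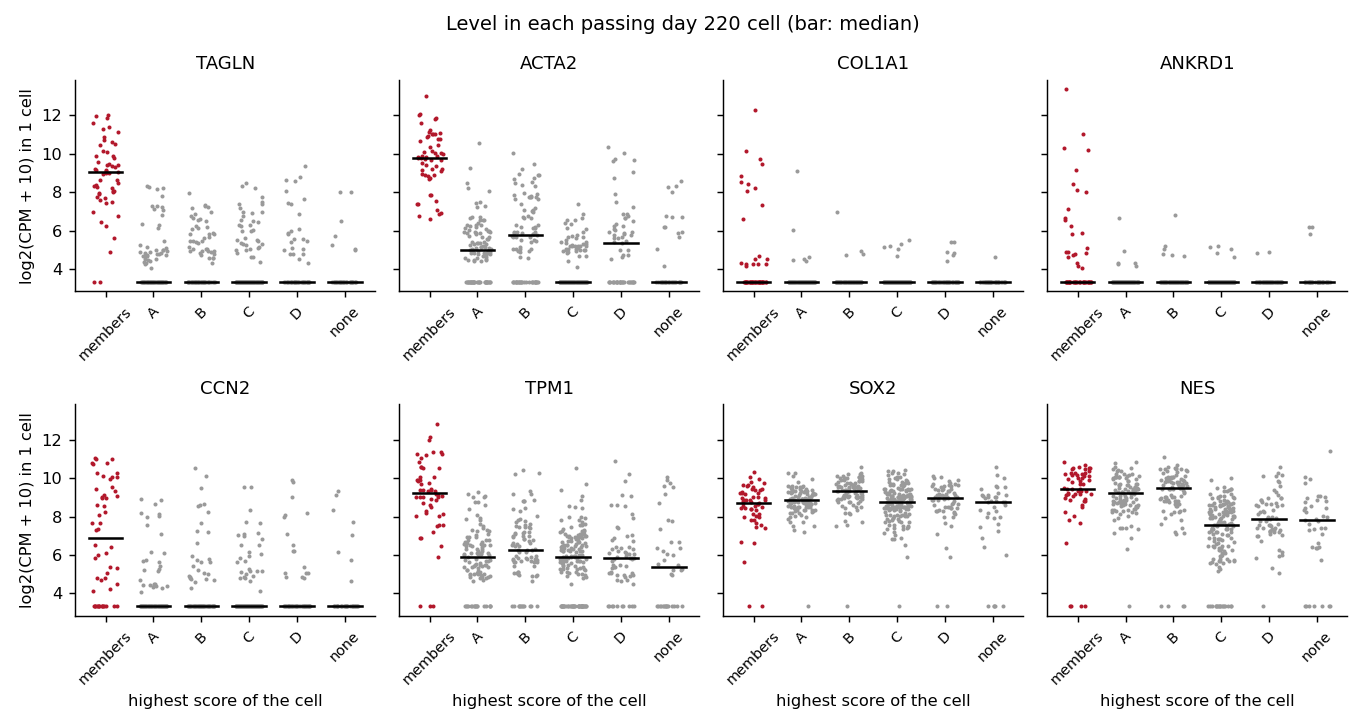
Level of 8 genes in every passing day 220 cell, as log2(CPM + 10), by the score that was highest in the cell. Members are red, the other classes and cells with no score at the minimum are grey, and bars are medians. TAGLN, ACTA2 and TPM1 are raised across nearly all members, COL1A1 and ANKRD1 in a minority, and SOX2 is present in nearly all cells.

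Across the transcriptome, the differences were few. A gene was counted when it reached 10 CPM in members or in other cells, and called higher or lower at a 2-fold ratio of CPM + 1. A gene could thus be counted through 1 group alone, and its ratio then leans toward that group. Of 10016 genes, 386 (3.85%) were called higher in members and 415 (4.14%) called lower, and the median log2 ratio was -0.11. By these shares the counts in the gene groups below are to be read. The 12 highest ratios among genes at 20 CPM or more, with score genes left out, were those of ANKRD1, C6orf15, IGFBP3, ACTG2, LINC01411, CYP1B1, ITGA4, HOXB5, MYLK, CCN2, LINC01629 and MAP3K7CL, from a log2 ratio of 6.47 to 3.38. Single cells weighed heavily in some of them. One member held 94.98% of the IGFBP3 UMIs, and without that cell, again the deepest, its log2 ratio fell from 5.76 to 1.88. Another member held 97.2% of the UMIs of LINC01411.

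The promoters of 5 of the leading genes are printed because they carry the letters that TEAD factors or SRF recognise. They come from RefSeq on GRCh38.p14 and give the 250 bases before the annotated start, read 5′ to 3′ on the strand of the gene. Capitals mark GGAATG or its reverse complement CATTCC in the first 3, and the CArG box in the last 2.
CCN2, chr6:131951373-131951622, minus strand: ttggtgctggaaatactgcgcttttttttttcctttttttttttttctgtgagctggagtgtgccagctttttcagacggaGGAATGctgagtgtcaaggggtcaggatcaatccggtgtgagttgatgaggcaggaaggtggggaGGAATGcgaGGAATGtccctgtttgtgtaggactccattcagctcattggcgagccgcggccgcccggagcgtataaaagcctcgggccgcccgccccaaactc
ANKRD1, chr10:90921088-90921337, minus strand: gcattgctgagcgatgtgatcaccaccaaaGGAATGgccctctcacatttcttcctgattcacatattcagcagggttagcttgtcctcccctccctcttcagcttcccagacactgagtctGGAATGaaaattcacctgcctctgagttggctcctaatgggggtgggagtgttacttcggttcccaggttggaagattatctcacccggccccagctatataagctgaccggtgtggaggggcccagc
C6orf15, chr6:31112576-31112825, minus strand: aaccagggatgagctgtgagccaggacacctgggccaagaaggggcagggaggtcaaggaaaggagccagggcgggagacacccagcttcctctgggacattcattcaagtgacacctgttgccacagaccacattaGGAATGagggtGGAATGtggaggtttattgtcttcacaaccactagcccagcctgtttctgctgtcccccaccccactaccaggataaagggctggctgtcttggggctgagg
ACTG2, chr2:73892758-73893007, plus strand: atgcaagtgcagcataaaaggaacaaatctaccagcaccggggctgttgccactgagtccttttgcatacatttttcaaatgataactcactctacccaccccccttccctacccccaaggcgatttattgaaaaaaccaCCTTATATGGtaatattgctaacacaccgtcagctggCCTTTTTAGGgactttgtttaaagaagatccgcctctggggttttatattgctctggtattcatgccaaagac
MYLK, chr3:123620549-123620798, minus strand: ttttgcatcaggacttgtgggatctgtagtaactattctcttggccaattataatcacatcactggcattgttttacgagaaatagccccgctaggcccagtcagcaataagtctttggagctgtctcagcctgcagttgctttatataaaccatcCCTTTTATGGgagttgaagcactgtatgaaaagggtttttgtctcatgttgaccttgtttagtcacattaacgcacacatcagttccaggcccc

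In the CCN2 promoter GGAATG began 169, 104 and 95 bases before the start, in ANKRD1 220 and 128, and in C6orf15 113 and 102. ACTG2 held CArG boxes at 110 and 73 bases, and MYLK 1 at 94 bases, with a CATTCC across its start. No marked motif overlapped another in these 5 promoters. Counting 250 bases before to 50 after the start on both strands, GGAATG or CATTCC was in 14.03% of 35116 promoters and the CArG box in 1.29%. Per gene, GGAATG or CATTCC was in 15.03% of the 7949 counted genes with a promoter in the table, in 22.1% of 285 higher genes and in 17.1% of 269 lower genes. The CArG box was in 1.67%, 8.42% and 2.60% of the same sets. Among listed contractile genes 5 of 15 held a CArG box, among actin and adhesion genes 8 of 19, and among YAP and TAZ targets 0 of 17. Per gene, the same lists held GGAATG or CATTCC in 8 of 15, 9 of 19 and 10 of 17, which were similar shares. The lists differ in promoters per gene, however. By promoter the shares were 31.0% of 29, 20.4% of 49 and 50% of 20, against 11.3% of the 11925 promoters of counted genes. These differences were not tested. The YAP and TAZ list rests in part on known TEAD sites. Many listed actin and adhesion genes are known to be regulated by SRF and MRTF, and contractile genes are classic SRF targets. These lists are therefore no independent evidence. Of the 12 highest genes 9 had a promoter in the table, and 4 of these held GGAATG or CATTCC and 2 a CArG box. IGFBP3, LINC01411, ITGA4 and LINC01629 held neither, and the 2 promoters listed for ACTA2 held no CArG box. These are matches of letters, not measured sites.

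Among lists with over 3 counted genes, the contractile apparatus had the highest median. Of its 18 listed genes, which leave out the score genes, 13 were counted, 10 were called higher and 0 lower, with a median log2 ratio of 2.01 against -0.11 over all counted genes. Without the deepest member 9 of 12 were higher, with a median of 2.08. The filter had a part in this, since CNN1, LMOD1, ACTG2, SYNPO2 and CSRP1 reached 10 CPM in members only. Of those at 10 CPM or more in the other cells, TPM1, MYLK, CALD1, CNN2 and TPM4 were called higher. MYL6, CNN3 and MYH10 were not. ACTG2, smooth muscle gamma actin, stood at 63.7 against 2.07 CPM, 30.8-fold higher (22.4 to 43.3). MYLK, the kinase that switches on smooth muscle myosin, stood at 242 against 19.98 CPM, 12.1-fold higher (10.8 to 13.6), and it was seen in 42 members. Over single members MYLK ran from 0 through a median of 52.0 to 1657 CPM, against a median of 0 and a highest level of 266 CPM in the others, so the ranges overlapped. TPM1, a tropomyosin of the actin filament, was 9.79-fold higher (9.34 to 10.3) at 1198 CPM, with 53 members positive and a median of 600.5 CPM against 49.9 CPM. TPM1 was also common outside members, in 374 of 468 other cells.

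CALD1, caldesmon, which binds actin and myosin, was the most abundant gene of the group at 5126 against 1039 CPM. CNN1, calponin of smooth muscle, stood at 37.4 against 2.73 CPM and was seen in 27 members. LMOD1, leiomodin of smooth muscle, stood at 21.7 against 2.16 CPM in 19 members. Other genes of mature smooth muscle were near 0. MYH11, the smooth muscle myosin heavy chain, stood at 2.55 CPM in members and 3.15 in the others, and DES and MYL9 stood at 1.27 CPM on 6 UMIs each. The non-muscle genes MYL6 and MYH10 had log2 ratios of 0.89 and 0.14.

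Genes of the actin cytoskeleton and focal adhesions went the same way with smaller ratios. Of 19 counted, 9 were called higher and 0 lower, with a median log2 ratio of 0.92 (0.84 without the deepest member). MYH9, non-muscle myosin, was 4.78-fold higher (4.39 to 5.20) and PDLIM7, an actin-anchoring adaptor, 3.49-fold (3.28 to 3.73). FHL2, a LIM-domain cofactor, and ACTN1, the actin cross-linker alpha-actinin, were 3.19-fold (2.85 to 3.56) and 2.74-fold (2.59 to 2.89) higher. SRF itself had a log2 ratio of 0.92, and the cytoplasmic actins ACTB and ACTG1 had 0.62 and 0.25. The smooth muscle actin ACTG2 thus differed far more than these common ones, while ACTA2 was part of the score that chose the members.

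Targets of YAP and TAZ were higher while the pathway's own genes were level. Of 20 targets counted, 10 were called higher and 0 lower, with a median log2 ratio of 0.97 and, without the deepest member, 9 of 19 and 0.94. CCN2, a matricellular growth factor, stood at 510 against 43.3 CPM, 11.8-fold higher (10.9 to 12.7). Over members it ran from 0 through a median of 114 to 2155 CPM, and over other cells from 0 through 0 to 1508 CPM. CCN2 passed 100 CPM in 28 members and in 41 of the others, so high CCN2 was not restricted to members.

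ANKRD1, a nuclear ankyrin-repeat protein induced by stretch, was rarer and more extreme. It stood at 221 against 1.504 CPM, was seen in 24 members and 22 other cells, and passed 100 CPM in 9 members and 1 other cell. The deepest member held 49.6% of its UMIs, and without that cell the log2 ratio was 5.57 instead of 6.47. The highest single level, 10517 CPM, was in a member under 5000 UMIs, and among deeper members the highest was 2050 CPM. CCN1, sister gene of CCN2, was 5.02-fold higher (4.497 to 5.597), and MYOF, a membrane repair ferlin, 8.08-fold (7.18 to 9.10). Of 13 Hippo components counted, only NF2, which encodes merlin, was called higher, at 66.9 against 31.1 CPM, and without the deepest member 0 were. YAP1 stood at 78.0 CPM in both groups, TAZ, encoded by WWTR1, at 430 against 354 CPM, and TEAD1 at 175 against 190 CPM.

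**Figure D3:**
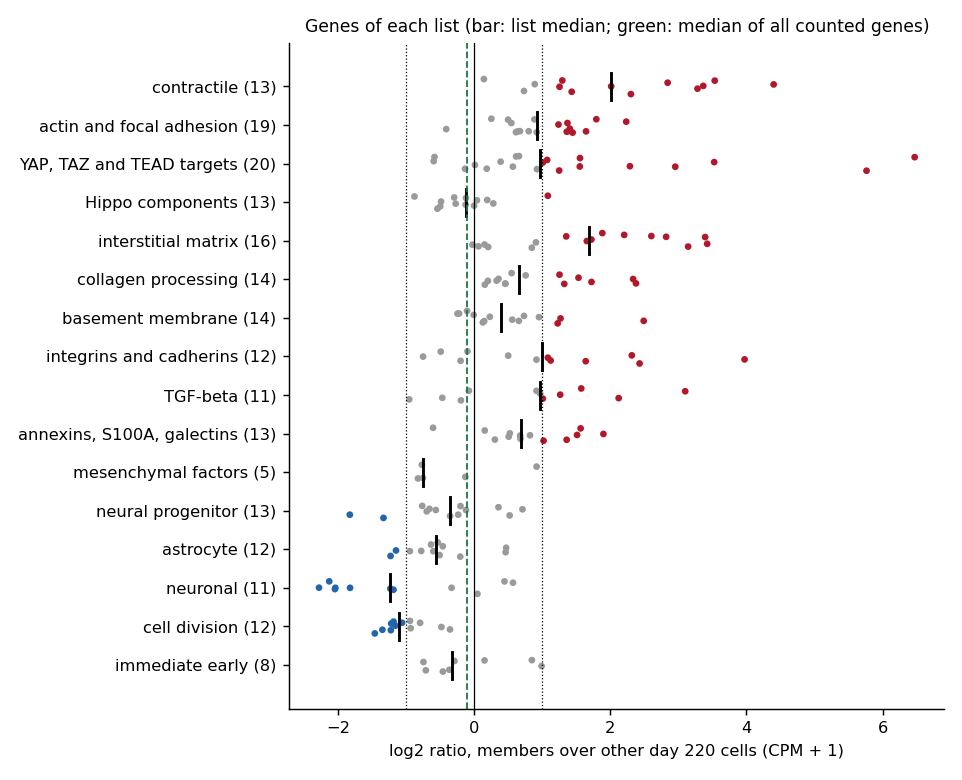
Log2 ratio of members over other day 220 cells (x axis, CPM + 1) for every counted gene of 16 lists, with the number of genes in brackets. Red points are at or above a 2-fold higher level and blue points at or below a 2-fold lower one. Black bars are list medians and the green line is the median of all counted genes. The contractile list has the highest median of the lists shown, and the neuronal and cell division lists the lowest.

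Interstitial matrix genes were higher by ratio, though many stood on few UMIs. Of 28 listed, COL1A1 left out, 16 were counted, 10 were called higher and 0 lower, with a median log2 ratio of 1.69. Of the higher genes COL5A1, POSTN, MFAP5, THBS1, FBLN5 and ELN reached 10 CPM in members only. At 10 CPM or more in the other cells, COL5A2, COL11A1, FBN1 and SPARC were called higher. COL6A1, FN1, FBN2, TNC and VCAN were not. SPARC, a collagen-binding glycoprotein, stood at 1358 against 531 CPM, 2.56-fold higher (2.48 to 2.64), and the minor fibrillar chain COL11A1 at 248 against 74.4 CPM. POSTN, COL5A1 and MFAP5 had log2 ratios over 3 but stood at 14.5, 12.7 and 15.7 CPM in 6, 7 and 10 members. The deepest member held 76.7% of the COL5A1 UMIs, and without it the log2 ratio fell from 3.42 to 1.69. TNC, a matrix glycoprotein of glia and glioma, was level at 505 and 513 CPM. FN1 was seen in 23 members, at 27.0 against 13.9 CPM.

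Among enzymes that fold and cross-link collagen, 6 of 14 were called higher and 0 lower, and 4 without the deepest member. LOXL1 and LOXL2, lysyl oxidases, were 5.35-fold (4.777 to 5.995) and 5.82-fold (4.51 to 7.53) higher. Of 14 basement membrane genes 3 were higher, led by HSPG2, perlecan, at 46.1 against 7.38 CPM. Of 11 matrix proteases and inhibitors 7 were higher and 1, MMP16, lower.

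Receptors that grip the matrix followed. Of 12 integrins and cadherins counted, 6 were called higher and 0 lower, and 4 of 11 without the deepest member. ITGA4 stood at 45.7 against 1.97 CPM in 28 members, ITGA3 at 173 against 31.4 CPM, and the common beta chain ITGB1 at 875 against 412 CPM. The neural cadherin CDH2 had a log2 ratio of 0.50. In the TGF-beta list 5 of 11 were higher and 0 lower. They included LTBP2, TGFB1, TGFB2 and PMEPA1. PMEPA1, a feedback target, was 2.99-fold higher (2.81 to 3.19).

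The insulin-like growth factor binding protein IGFBP5 stood at 2025 against 328 CPM, 6.17-fold higher (5.98 to 6.37), with 23.1% of its UMIs in a single member, and IGFBP2 at 2194 against 1067 CPM. Among calcium-binding annexins, S100A proteins and galectins 5 of 13 were higher, led by S100A10 at 381 against 101 CPM. The list of AP-1 and related factors was not higher as a whole, with 3 of 10 called higher, 0 lower and a median log2 ratio of 0.04. In it FOSL2 and FOSL1 were 4.79-fold (4.16 to 5.52) and 2.76-fold (2.20 to 3.47) higher, while JUNB, STAT3 and CEBPD had log2 ratios of -0.74, -0.75 and -0.84. In contrast, 0 of 8 counted immediate early genes of dissociation were at least 2-fold apart, with a median log2 ratio of -0.33 (1 of them without the deepest member). Of 5 counted mesenchymal transcription factors none was at least 2-fold apart. ZEB1 stood at 167 against 296 CPM, and TWIST1 and SNAI2 had 5 and 2 UMIs in members.

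Neural progenitor genes were present in members. Of 13 progenitor and radial glia genes counted, 0 were called higher and 2 lower, HES5 and PROM1, with a median log2 ratio of -0.35. SOX2 stood at 405 against 518 CPM and was seen in 54 of 56 members. Its level ran from 0 through a median of 419 to 1279 CPM in members and from a median of 478.5 to 1541 CPM in the others, which overlapped throughout. NES and VIM, which encode intermediate filaments, stood at 851 against 520 and at 10503 against 7316 CPM. Of 12 astrocyte genes 2 were lower, SLC1A2 and NFIA, and 0 higher. GFAP stood at 120 against 138 CPM and S100B at 434 against 598 CPM.

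Neuronal genes were lower. Of 11 counted, 7 were called lower and 0 higher, with a median log2 ratio of -1.23. By class the list summed to 1449 CPM in members and 1310 in A cells, against 2289, 3425 and 3204 CPM in B, C and D cells. DCX, a microtubule protein of young neurons, was 4.98-fold lower (4.21 to 5.93) at 30.4 CPM, and the interneuron factor DLX2 was 4.18-fold lower (3.63 to 4.85). The 12 lowest genes overall were SYNPR, AL589740.1, IGFBPL1, NRXN3, SLCO5A1, IL1RAPL1, AC110296.1, CRB1, AC008056.1, ATRNL1, DLX6 and LMO3, from a log2 ratio of -3.75 to -2.42. In 10 of these 12 genes the highest class level was that of cells with score C highest. DLX6 overlaps its antisense transcript DLX6-AS1, a gene of score C, and reads of the 2 may not be told apart. NRXN3, a synaptic adhesion gene, stood at 138 CPM in members and at 3530 CPM in C cells, 715 in D, 74.0 in A and 10.3 in B. SYNPR, a synaptic vesicle gene, stood at 0.637 CPM on 3 UMIs in members and 63.8 CPM in C cells, and 0.234 CPM in B cells. Members were thus lower than C cells but not lower than all classes.

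Division genes were lower too. Of 12 counted, 7 were called lower and 0 higher, with a median log2 ratio of -1.11, and 6 without the deepest member. TOP2A, a topoisomerase of dividing cells, stood at 19.97 against 56.59 CPM, and 1 member held 86.2% of its UMIs. MKI67 and TOP2A occurred together in 2 members. Cells with score A highest were as low, with a summed level of 239 CPM over the list against 278 in members and TOP2A at 7.95 CPM.

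Markers of several other cell types were at or near 0 in members. Summed over 4 endothelial genes the level was 0.212 CPM in members and 0.376 in the others, over 5 microglial genes 0.212 and 0.470 CPM, and over 5 neural crest genes 4.46 and 1.13 CPM. PECAM1 was at 0 in members. Over 6 skeletal and cardiac muscle genes the sums were 3.61 and 5.73 CPM, and over 5 epithelial genes 5.74 and 3.71 CPM. In the pericyte list only MCAM was called higher, at 78.6 against 26.8 CPM, while PDGFRB stood at 7.86 and 4.65 CPM, RGS5 at 5.74 and 2.82 CPM, and ABCC9 and CSPG4 at under 1 CPM in both groups. Other lists were not near 0. The bone and cartilage list summed to 188 CPM in members and 162 in the others, mostly from SPP1, at 109 against 107 CPM, and RUNX2, at 68.6 against 37.9 CPM. The fibroblast and meningeal list summed to 145 against 358 CPM and the oligodendrocyte lineage list to 314 against 579 CPM, and PDGFRA, which is in both, stood at 87.3 against 304 CPM. Part of the smooth muscle list, ACTG2, CNN1 and LMOD1, is shared with the contractile list.

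Set beside the other classes, members had the highest summed level of the contractile list, at 10724 CPM against 3351, 4032, 2700 and 3776 CPM in A, B, C and D cells. In single members that sum ran from 2894 through a median of 8268 to 26170 CPM, and in other cells from 153 through 2978 to 8857 CPM, so the ranges overlapped. A few genes weighed most in it. CALD1 alone made up 5126 CPM of the members' sum and MYL6 2606 CPM, against 1039 and 1405 CPM in the other passing cells. The list of the mesenchymal-like glioblastoma state without hypoxia had 12 of 36 genes called higher and 0 lower. Its summed level was 19015 CPM in members and 18032 CPM in A cells, against 12471, 7402 and 10782 CPM in B, C and D cells, and VIM alone made up 10503 CPM in members and 11231 in A cells. Other lists set the same classes apart. The YAP and TAZ targets summed to 2590 CPM in members and 1255 in A cells, and the astrocyte genes to 3104 and 6423 CPM. CCN2 outside members was highest in B and D cells, at 71.9 and 65.8 CPM.

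Members varied widely among themselves. In the lower and upper 28 members by score E, TAGLN stood at 269 and 1542 CPM and ACTA2 at 467 and 1938 CPM, which the score fixes. Genes not in the score differed as well. TPM1 stood at 482 and 1656 CPM, MYLK at 58.8 and 359 CPM, C6orf15 at 3.27 and 155 CPM and ANKRD1 at 47.4 and 332 CPM. ANKRD1 was seen in 10 lower and 14 upper members, and the deepest member, among the upper ones, held 49.6% of its UMIs. CCN2 differed less, at 427 and 563 CPM, while SOX2 was lower in the upper members, at 558 and 308 CPM. NES was alike at 819 and 872 CPM. The upper members were also deeper, with a median of 112179 against 64681 UMIs, and the part of depth in these differences was not tested.

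Members with a COL1A1 UMI differed in the same direction. The 20 with one stood at 379 CPM of MYLK against 109 in the 36 without, and at 415 against 33.8 CPM of ANKRD1 (215 CPM without the deepest member). FABP7, a lipid-binding protein of radial glia, stood at 1119 against 3372 CPM and GFAP at 51.9 against 186 CPM. SOX2 was present in all 20 members with COL1A1. These had a median of 112954 UMIs against 65776 in those without, so that detection of COL1A1 and depth cannot be told apart.

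Over the 49 members with 5000 UMIs or more, the Spearman correlation of TAGLN was 0.76 with ACTA2, 0.69 with TPM1, 0.69 with MYLK, 0.55 with C6orf15, 0.36 with CCN2 and -0.37 with SOX2. CCN2 had 0.63 with CCN1 and 0.53 with ANKRD1. These cells share 1 library, and TAGLN itself had 0.59 with the number of UMIs, so these are descriptions. The genes that varied most beyond counting error among members included PEG10, ANKRD1, HIST1H4C, HECTD2, NEAT1, NRXN3 and AL139393.3. In each of these but AL139393.3, where it was 17.9%, 1 member held between 29.1% and 49.6% of the UMIs.

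**Figure D4:**
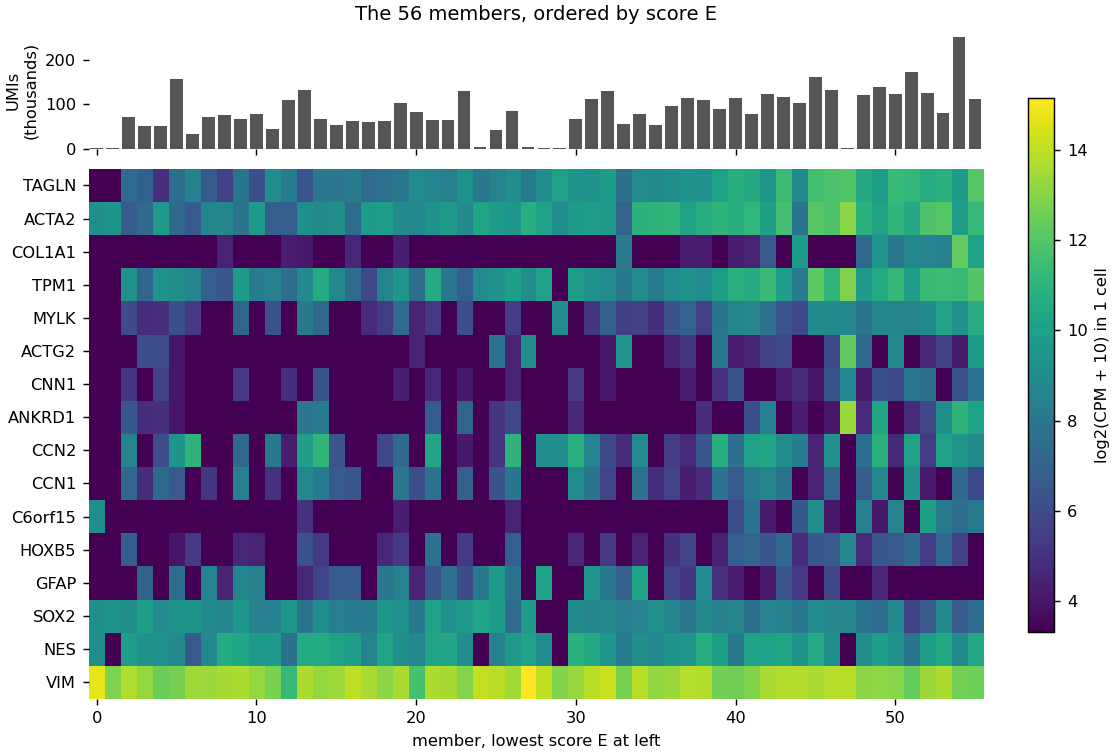
The 56 members ordered by score E from left to right, with UMIs per cell (in units of 1000) above and the level of 16 genes as log2(CPM + 10) below. TAGLN, ACTA2, TPM1 and MYLK strengthen toward the right, COL1A1, ANKRD1 and C6orf15 are patchy, and VIM is present in every member and NES in nearly all. Several columns with many genes at 0 are members under 5000 UMIs.

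The contrasts were also measured at equal depth. After each cell was thinned to 5000 UMIs, 49 members and 445 others remained, and 7 members and 23 others were left out as shallower. TAGLN was then found in 83.7% of members and 9.21% of others (unthinned 96.4% and 32.9%), ACTA2 in 87.8% and 15.96% (100% and 50.9%), and CCN2 in 55.1% and 10.6% (75% and 23.9%). TAGLN and ACTA2 had chosen the members from the unthinned counts, so their contrast follows from the rule and is no support. TPM1 was found in 79.6% and 29.9% (94.6% and 79.9% unthinned). C6orf15 was found in 16.3% of members and in 0 of 445 others at this depth. A count of 0 allows a share of up to 0.674% by 3 cells, or 0.826% by the Clopper-Pearson bound, and it limits only cells with a UMI after thinning. Unthinned, 30.4% of members and 2.35% of others (11 cells) had a UMI of C6orf15. SOX2 was found in 77.6% of members (63.4 to 88.2%) and 88.1% of others (84.7 to 91.0%). Against only the other cells with 60000 UMIs or more, a comparison added after the data were seen, the contractile list had a median log2 ratio of 2.14.

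When all cells were clustered without the 16 score genes, 34 of 56 members (60.7%) fell into 1 of 7 clusters, where they made up 65.4% of 52 cells. Its leading genes were ANKRD1, CCN2, C6orf15, TPM1, MYLK and TMEFF2. The members in it had a median score E of 2.48 and 110813.5 UMIs. Of the rest, 9 lay in a cluster led by HLA-DPA1 and SPP1, 6 in one led by DPP6, 4 in one led by PEG10 and NRXN3, and 3 in one led by TOP2A and MKI67. The class set by 3 genes therefore coincided with a transcriptome-wide cluster for part of its cells and ran into the other groups for the remainder.

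The same rule applied to day 160 gave 919 of 9972 passing cells, 9.22% (8.66 to 9.80%), at a median of 16834 UMIs. There 348 of 8983 counted genes (3.87%) were called higher than in the 9053 other cells and 185 (2.06%) called lower. Most counted contractile genes outside the score were higher at both times, in cells that the same score genes had chosen in each library. How far that shared choice makes the libraries agree was not tested. Of 12 contractile genes counted at day 160, 9 were higher and 0 lower, with a median log2 ratio of 1.89, and of 17 YAP and TAZ targets 11 were higher with a median of 1.32. ACTG2 stood at 155 against 1.27 CPM, CCN2 at 266 against 10.2 CPM and ANKRD1 at 95.9 against 0.198 CPM in day 160 members and others. Of the 383 higher genes at day 220 with score genes left out, 189 (49.3%) were also higher at day 160, where they were 54.8% of 345. Of the 405 lower genes 85 (21.0%) were also lower at day 160, where they were 47.5% of 179. Over 8439 genes counted in both, Spearman's rho of the 2 ratios was 0.67, across genes that are not independent replicates.

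By their mean ratio over both libraries, the leading genes included ANKRD1, C6orf15, IGFBP3, ACTG2, CCN2, MYLK and CNN1. The libraries also differed. Cell division genes, of which 7 of 12 were lower in day 220 members, had 0 of 16 lower at day 160, with a median log2 ratio of -0.37. The difference between the libraries was not tested. None of the genes called higher at day 220 was called lower at day 160. The reverse held for 2 genes, DLK1 and SLC7A11, which were named after their values were seen.

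The HOXB genes, which set position along the hindbrain and spinal cord, were the clearest difference between the libraries among the genes named. They lie side by side on chromosome 17 of GRCh38, from HOXB2 at 48540894 to HOXB6 ending at 48604992, where the annotated HOXB3 spans HOXB5 and overlaps HOXB6, so that reads could be split between them. At day 220 HOXB5 stood at 47.4 CPM in members against 3.15 in the others, 15.04-fold higher (11.4 to 20.1), and it was seen in 33 members. HOXB2 stood at 34.4 against 3.62 CPM, HOXB3 at 38.7 against 6.35 CPM and HOXB6 at 16.1 against 1.598 CPM. At day 160 the levels of HOXB5 were 43.4 CPM in members and 69.8 in the others, of HOXB2 58.0 and 79.3, of HOXB3 52.7 and 52.5, and of HOXB6 29.4 and 46.4. The members' level of HOXB5 was thus close at both times, while their levels of HOXB2, HOXB3 and HOXB6 were lower at day 220. For each of these genes the level in the other cells differed more between the libraries.

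**Figure D5:**
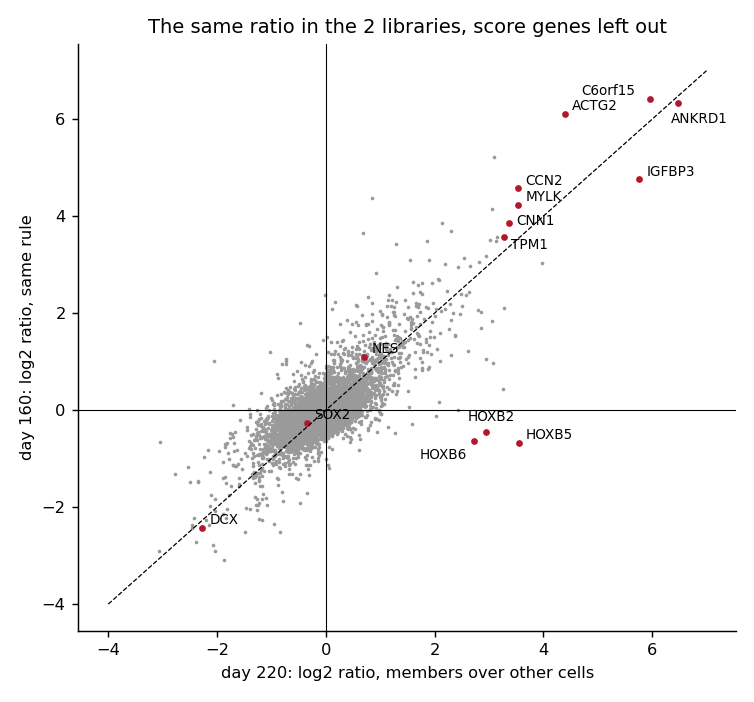
Log2 ratio of members over other cells at day 220 (x axis) and by the same rule at day 160 (y axis) for each of 8439 genes counted in both libraries, score genes left out. Red points are named genes and the dashed line marks equal ratios. Contractile genes and YAP targets lie high in both, and HOXB2, HOXB5 and HOXB6 lie high at day 220 only.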

How the data were processed

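The authors deposited unnormalised UMI counts of a 10x 3′ kit, which Cell Ranger 7.0.1 produced per the file headers. The submitters' processing notes give Seurat 4 and hg38. For the intron and strand settings of that step, nothing is stated in the sources used here. Total UMIs were 156737179 at day 160 and 29040529 at day 220. Barcodes with 1000 or more genes and at most 15% mitochondrial UMIs passed, 9972 of 13018 and 524 of 676. Libraries were grouped by the time label. Counts were summed over cells and scaled to CPM, and ratios were log2 of CPM + 1. Intervals are 95% exact Poisson (levels), conditional binomial (folds, without the added 1) and Clopper-Pearson (shares). A gene with no UMI has a limit of 3 UMIs.

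Genes were named by rule: the 12 highest and 12 lowest ratios at 20 CPM or more, up to 4 per list by size of ratio, 5 markers, the 8 most variable, and the 8 highest over both libraries. Other listed genes named serve as markers or examples, chosen after their values were seen, as were TAZ, TEAD1, SRF, actins and HOXB3. The members, rule and 42 gene lists were chosen with earlier results of these data known. Gene positions are from GENCODE 29. Scrublet was run in scanpy 1.11.5 at an expected rate of 0.06. Clustering used 2000 variable genes, 30 components, 15 neighbours and resolution 0.5. The ratio script was tested on simulated data. The alternatives tried are given in the closing section. Some genes that meet the naming rule are not reported here.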

Additional observations from a re-analysis of the deposited data

Results flagged for a closer look

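HOXB5, HOXB2 and HOXB6 had ratios of opposite sign in the 2 libraries. Members over other cells gave log2 ratios of 3.54 at day 220 and -0.67 at day 160 for HOXB5, 2.94 and -0.45 for HOXB2, and 2.72 and -0.64 for HOXB6. The difference was not tested, since each time point was 1 library.

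A signal also lay in barcodes that the comparisons left out. Of 62 day 220 barcodes that failed the filters although they had 1000 or more genes, that is, over the mitochondrial limit, 11 (17.7%, exact Clopper-Pearson interval 9.20 to 29.5%) had score E highest and at least 0.5. A count of 0 among them would have allowed 4.84%. Their median was 63693 UMIs. Among passing cells the share was 10.7% (8.17 to 13.7%), and the intervals overlap.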

How the results depend on the processing

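No paired analysis was possible because each time point was 1 library. With 23 alternatives, 26 named genes gave 598 values, of which 525 stayed within counting error, 73 moved further and 0 changed sign. Staying within counting error did not always keep the 2-fold call. The log2 ratio of LINC01411 fell from 4.37 to 0.48 with a mitochondrial limit of 10%. The ratios closest to 0 were -0.63 for DLX6, -0.67 for LMO3 and -0.81 for SLCO5A1. The contractile median of 2.01 ranged from 1.27 to 2.27. The members' share of 10.7% was 7.63% (40 cells) when a lead of 0.5 was asked, which also gave 731 lower genes.

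The counts of 386 higher and 415 lower genes moved by over 1.5 times as follows. They were 255 and 267 with a mitochondrial limit of 10%, 824 and 1393 with cells thinned to 5000 UMIs, 185 and 146 at 50 CPM, 618 and 964 with no filter, and 226 and 152 with a pseudocount of 10 CPM. The lower count was 256 when ratios were centred on intron length, with 487 higher, and 267 against other cells with 60000 UMIs or more, which was added after the data were seen. At day 160 the higher count of 348 was 125 at 50 CPM. Fewer genes enter at 50 CPM and more without a filter, and for the others the cause was not tested. Scores were computed again after thinning, which gave 54 members of 5000 UMIs each.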

Other observations

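Other listed groups showed smaller differences. Of 15 cholesterol synthesis genes 3 were at least 2-fold higher in members and 0 lower, with a median log2 ratio of 0.64. At day 160 the same list had 0 of 15 higher and a median of 0.12. Of 14 genes of the p53 and CDK inhibitor list 1, BTG2, was lower and 1 was higher, CDKN2B at 50.6 against 15.98 CPM, while CDKN1A stood at 127 and 126 CPM. NOG, the BMP antagonist noggin, stood at 11.05 against 0.329 CPM, but in only 4 members.

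CCL2, a chemokine outside the gene lists that was chosen after its values were seen, stood at 487 against 110 CPM, 4.42-fold higher (4.17 to 4.68). It was seen in 38 members, and A cells stood at 289 CPM.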
